A study of Mus musculus with 6 samples.

Results

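To ask whether genes of the intermediate filament cytoskeleton and the nuclear lamina differ when the dose of Srrm2 is reduced, the 5 genes Vim, Nes, Lmna, Lmnb1 and Lmnb2 were followed in total RNA of mouse embryonic stem cells. They were chosen by name, as the vimentin, nestin and nuclear lamin genes, out of 42450 genes listed, and each of the 5 was among the 18905 genes that passed the filter on low counts. Earlier results of these data were known when the genes and the lists below were chosen. The 3 WT libraries came from the parental E14tg2a.4 line, a feeder-free mouse embryonic stem cell line. The 3 Srrm2+/- libraries came from the heterozygous derivative CG0630, which carries a gene-trap cassette in exon 1 of Srrm2, a gene for a splicing factor of nuclear speckles. Both lines were grown on gelatin and kept in serum-free medium with LIF before collection. The Srrm2+/- line is a single gene-trap clone, and per the study's methods its cells were frozen at lower passage numbers than the WT cells, so that genotype, clone and passage cannot be told apart. The replicates were cultures thawed from separately frozen batches, and p-values measure the spread between them.

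Intermediate filaments are built from related coiled-coil proteins that pair through a central rod domain. Vimentin forms the main cytoplasmic filament of mesenchymal and many cultured cells, and nestin is a large filament protein of neural and other progenitor cells that assembles together with vimentin and not alone. The lamins are the nuclear members of the family and form the lamina under the inner nuclear membrane. Lmnb1 and Lmnb2 encode the B-type lamins, found in nearly all cells, whereas Lmna gives lamin A and lamin C by alternative processing of the same transcript and is known for low expression in embryonic stem cells and higher expression in differentiated tissue.

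Vim, Nes and Lmna rose in Srrm2+/- cells, and the B-type lamin genes did not pass the test. Nes rose 6.36-fold, Lmna 1.35-fold and Vim 1.30-fold, where each fold is that of the edgeR fit over all genes. Thus 3 of the 5 genes were called higher (edgeR quasi-likelihood test, Benjamini-Hochberg adjusted p under 0.05), against 13.6% of all genes tested called higher, 11.7% called lower and 25.3% called in either direction. Of the 5 genes, 4 had groups that did not overlap with Srrm2+/- higher, as did 21.4% of all genes tested. Gene levels are in CPM, the gene's counts relative to the total of its library, scaled by the TMM factors of edgeR, means carry the SD over the 3 libraries of a group (n = 3), and each adjusted p comes from the edgeR fit unless another tool is named. In bulk RNA, a change in the share of cells that express a gene and a change in its RNA per cell cannot be told apart.

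The libraries held 54151532 to 69933465 estimated counts, and those of Srrm2+/- were the deeper ones. Log2 CPM correlated at 0.985 to 0.989 within groups and at 0.971 to 0.9753 between them (Pearson's r across genes, which are not independent replicates), and the libraries of a group differed by more than counting noise. Srrm2 itself averaged 59.3 ± 3.02 CPM in Srrm2+/- against 95.7 ± 3.94 in WT (-0.69 in log2, SE 0.050, adjusted p 2.38e-05), the direction given by the labels. The pluripotency factor Pou5f1 averaged 847 ± 16.3 CPM in WT against 824 ± 11.7 in Srrm2+/-, so both groups held this marker of the labelled cell type. Other pluripotency markers differed between the groups and are given with the cell type markers below.

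Nes (ENSMUSG00000004891, GRCm38 chromosome 3, 87971078 to 87980451, plus strand) showed the largest difference of the 5 genes. Its level was 14.3, 11.2 and 13.9 CPM across WT, compared with 87.9, 78.3 and 84.6 CPM across Srrm2+/-. The lowest Srrm2+/- library thus stood 64.0 CPM above the highest WT library. The group means, 13.2 ± 1.73 and 83.6 ± 4.85 CPM, correspond to 2.67 in log2 (SE 0.092, 95% interval 2.46 to 2.88, adjusted p 4.21e-07). Of the 18905 genes tested, 136 (0.719%) had a larger log2 fold change than Nes, and 0.106% had a smaller p.

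Vim (ENSMUSG00000026728, chromosome 2, 13573927 to 13582826, plus strand) was at 80.7, 96.6 and 83.0 CPM across WT, compared with 106, 121 and 112 CPM across Srrm2+/-. The groups did not overlap, although WT replicate 2 lay closer to the Srrm2+/- libraries than the other WT libraries did. The means, 86.8 ± 8.57 and 113 ± 7.21 CPM, correspond to 0.38 in log2 (SE 0.073, 95% interval 0.21 to 0.55, adjusted p 0.00534). Its rise in log2 was smaller than the median of 0.59 among all genes called higher.

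Lmna (ENSMUSG00000028063, chromosome 3, 88480147 to 88509956, minus strand) gave 34.5, 29.5 and 35.1 CPM in WT and 44.5, 44.1 and 44.9 CPM in Srrm2+/-. Again the groups did not overlap. The WT mean was 33.0 ± 3.04 CPM and the Srrm2+/- mean 44.5 ± 0.369 CPM, which is 0.43 in log2 (SE 0.066, 95% interval 0.28 to 0.58, adjusted p 0.00158). The count of Lmna sums the transcripts of lamin A and lamin C, and their split was not analysed here.

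Lmnb1 (ENSMUSG00000024590, chromosome 18, 56707813 to 56753424, plus strand) was at 219, 209 and 221 CPM in WT and at 234, 231 and 246 CPM in Srrm2+/-. Every Srrm2+/- library lay above every WT library, but the adjusted p was just over the threshold (0.13 in log2, SE 0.042, 95% interval 0.035 to 0.23, adjusted p 0.0513). The call turned with the tool or scaling, since DESeq2 and limma voom passed it at adjusted p of 0.0264 and 0.0412. Groups that do not overlap were common in this table, at 41.4% of all tested genes.

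Lmnb2 (ENSMUSG00000062075, chromosome 10, 80901203 to 80918245, minus strand) gave 96.1, 99.99 and 102 CPM in WT and 88.3, 98.2 and 96.3 CPM in Srrm2+/-. It was the sole member whose groups overlapped. The log2 fold change was -0.078 (SE 0.049, 95% interval -0.19 to 0.034, adjusted p 0.297).

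**Figure D1:**
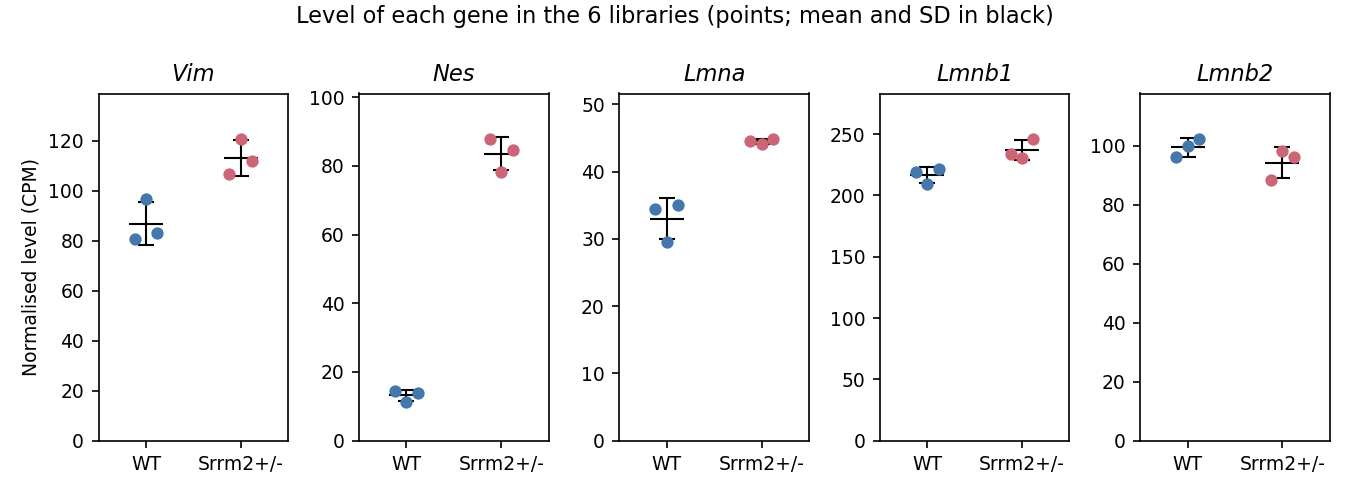
Normalised level of Vim, Nes, Lmna, Lmnb1 and Lmnb2 in CPM (vertical axes from 0, a scale of its own for each gene) in the 3 WT and 3 Srrm2+/- libraries; each point is a library, and the black bar gives the mean and SD. Nes moves from 13.2 to 83.6 CPM, Vim and Lmna shift without overlap, and the points of Lmnb2 overlap between the groups.

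The spread between cultures differed between the genes and the groups. In WT the coefficients of variation of Vim, Nes and Lmna were 9.87%, 13.1% and 9.20%, against 3.02% for Lmnb1 and 3.203% for Lmnb2. The median coefficient in WT was 3.50% among tested genes whose mean log2 CPM reached 5. WT replicate 2 had the highest Vim and the lowest Nes and Lmna of its group. In Srrm2+/- the coefficient of Lmna was 0.830%, the smallest of the 5 genes in either group, and that of Nes was 5.80%.

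**Figure D2:**
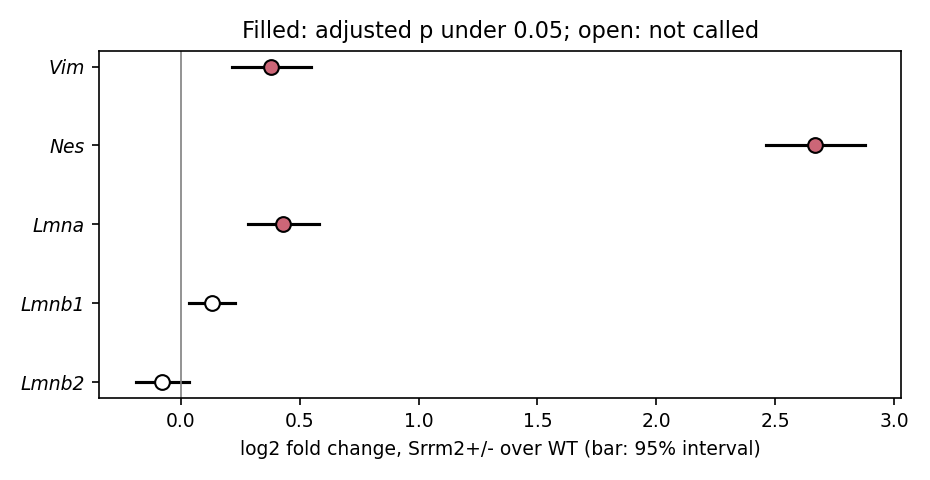
Log2 fold change of each gene, Srrm2+/- over WT, from the edgeR fit over all genes; bars are 95% intervals and filled points passed an adjusted p under 0.05. Nes lies at 2.67, Lmna and Vim at 0.43 and 0.38, and the open points of Lmnb1 and Lmnb2 at 0.13 and -0.078.

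Reads shared with other genes can make counts uncertain, so sequence overlap was measured. No annotated gene overlapped any of the 5 on either strand. Of the 31-base words in their annotated transcripts, the length used by Kallisto by default, 0% of those of Nes and Lmnb1, 0.187% of those of Vim, 1.36% of those of Lmna and 1.46% of those of Lmnb2 also occurred in transcripts of other genes.

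Levels were compared between genes only per kilobase of exon sequence, as CPM divided by the length of the union of annotated exons. On that scale Lmnb1 led in WT at 73.1 ± 2.20, followed by Lmnb2 at 23.2 ± 0.744, Vim at 18.3 ± 1.81, Lmna at 5.66 ± 0.521 and Nes at 2.05 ± 0.269 CPM per kilobase. In Srrm2+/- Lmnb1 remained the highest at 80.0 ± 2.73, Vim was at 23.8 ± 1.52 and Lmnb2 at 22.0 ± 1.22, and Nes at 13.0 ± 0.756 stood above Lmna at 7.62 ± 0.0633 CPM per kilobase. The order of Vim and Lmnb2 was not settled in WT. It turned there when the longest annotated transcript was used as the length (Vim 29.7 ± 2.93, Lmnb2 28.2 ± 0.903 CPM per kilobase). In Srrm2+/- Vim had the higher mean by either length. Their ranges in Srrm2+/- overlapped by the union of exons (22.4 to 25.4 against 20.6 to 22.9). By the longest transcript they did not (36.4 to 41.3 against 25.0 to 27.8). The exchange of places between Nes and Lmna held with either length. By the longest transcript, Nes was at 2.15 and Lmna at 8.36 CPM per kilobase in WT, and at 13.6 and 11.3 in Srrm2+/-.

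The lamin genes were next set against each other within each library, since a ratio of counts in 1 library does not depend on the scaling between libraries. The log2 ratio of Lmna to Lmnb1 was -2.67, -2.82 and -2.66 in WT and -2.40, -2.39 and -2.46 in Srrm2+/-. The groups did not overlap, and the ratio was 1.23-fold higher in Srrm2+/- (difference 0.30 in log2). How often the ratios of other gene pairs part in this way was not counted. Among single genes tested, the groups did not overlap for 41.4%. For Lmna to Lmnb2 the log2 ratio was -1.60 ± 0.146 in WT against -1.08 ± 0.0837 in Srrm2+/-, a difference of 0.51. For Lmnb1 to Lmnb2 it was 1.12 ± 0.0615 against 1.33 ± 0.0886, a difference of 0.21. With 3 libraries against 3, the 2-sided exact permutation test cannot go below p = 0.1, and these 3 ratios gave that smallest value (adjusted p = 0.125 over the 5 ratios compared), which does not pass the threshold. Put as a share of the summed lamin level per kilobase of the exon union, Lmna made up 5.54 ± 0.374% in WT and 6.96 ± 0.160% in Srrm2+/-. Lmnb1 made up 71.7% and 73.0%, and Lmnb2 22.8% and 20.1%, in that order of groups. These shares depend on the length used. The exon union of Lmna is 5838 bases and its longest transcript 3948, against 2962 and 2843 for Lmnb1.

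Vimentin and nestin, which assemble into the same filaments, were set against each other in the same way. The log2 ratio of Vim to Nes counts was 2.49, 3.11 and 2.57 in WT and 0.28, 0.62 and 0.40 in Srrm2+/-. The groups did not overlap. The difference was -2.29 (2-sided exact permutation p = 0.1, adjusted p = 0.125). For Vim against Lmna the groups overlapped, with log2 ratios of 1.39 ± 0.274 in WT and 1.34 ± 0.0989 in Srrm2+/- (difference -0.052, 2-sided exact permutation p = 1). That difference changed sign to 0.11 without WT replicate 2.

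**Figure D3:**
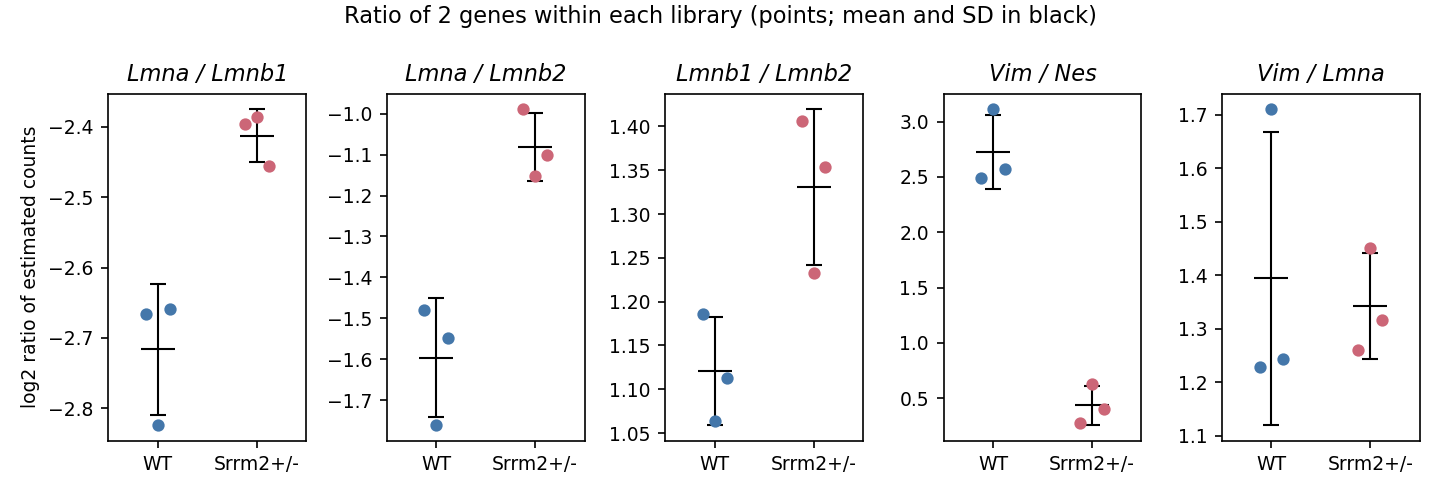
Log2 ratio of the estimated counts of a pair of genes within each library (points), with the mean and SD in black; vertical axes differ between panels and do not start at 0. The WT and Srrm2+/- points are apart for the 3 lamin ratios and for Vim to Nes, and overlap for Vim to Lmna.

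The 250 bases before the RefSeq transcription start are shown for Nes, which had the largest rise, and for Lmnb2, which did not pass the test (RefSeq, GRCm38.p6, gene strand, 5′ to 3′). RefSeq promoters were matched for Vim, Nes, Lmna and Lmnb2. The windows of Vim and Lmna overlap annotated untranslated exons of other transcripts of these genes and are described without their letters. The last bases of the Nes window lie in the first exon of an annotated Nes transcript with a retained intron, and a further RefSeq start of Lmna and of Lmnb2 is not shown. Capitals mark matches to the GC box (GGGCGG), the CCAAT box (CCAAT), both on either strand, and the TATA box (TATAAA) on the gene strand. The windows shown are chr3:87970843-87971092, plus strand, for Nes and chr10:80918246-80918495, minus strand, for Lmnb2.
Nes: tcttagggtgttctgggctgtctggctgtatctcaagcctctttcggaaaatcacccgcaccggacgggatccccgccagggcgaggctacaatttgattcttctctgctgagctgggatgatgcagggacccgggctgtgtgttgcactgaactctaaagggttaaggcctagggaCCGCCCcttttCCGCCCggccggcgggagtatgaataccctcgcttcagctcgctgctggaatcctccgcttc
Lmnb2: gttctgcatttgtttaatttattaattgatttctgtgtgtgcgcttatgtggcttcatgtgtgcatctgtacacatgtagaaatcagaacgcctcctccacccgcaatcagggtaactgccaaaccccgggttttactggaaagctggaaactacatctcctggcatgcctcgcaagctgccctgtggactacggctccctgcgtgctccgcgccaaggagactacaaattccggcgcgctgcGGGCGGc

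No motif of those searched occurred in all 3 windows of the genes that rose. The Vim window held a TATA box, whose first base lies 32 bases before the start, and CCAAT boxes 196 and 94 bases before it. The Nes window held GC boxes 73 and 62 bases before the start, and the first windows of Lmna and Lmnb2 a GC box each, 52 and 7 bases before the start. The window of the further Lmna start held a CCAAT box 131 bases before it and no GC box. That of the further Lmnb2 start held no motif of those searched. Over 32851 RefSeq promoters, 32.7% of windows of this length held a GC box, 33.8% a CCAAT box and 7.59% a TATA box. The AP-1 motif (TGANTCA) and the CArG box, the motif bound by serum response factor, were also searched on both strands. The letters of neither occurred in any of these windows. The AP-1 motif and the CArG box occurred in 6.75% and 1.47% of all windows. A match or its absence is a description of these letters and says nothing of binding.

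Other cytoplasmic intermediate filament genes went in both directions. Of 11 such genes besides keratins, 10 were tested, and 3 were called higher and 2 lower, a share to be read against the 25.3% of all genes. Synm, for synemin, a partner of vimentin and desmin filaments, rose from 2.47 ± 0.468 to 4.35 ± 0.665 CPM (0.82 in log2, SE 0.18, adjusted p 0.00939). The muscle filament gene Des rose from 11.2 to 14.2 CPM (0.34, SE 0.074), and the neurofilament gene Nefh from 9.90 to 11.8 CPM (0.26, SE 0.073). The neuronal filament genes Ina and Nefl fell by 0.21 each on the log2 scale, from 30.5 to 26.4 CPM and from 43.4 to 37.5 CPM. The median log2 fold change of the tested genes was 0.33, beside -0.0025 for all genes tested. The number called was 2 without WT replicate 2 or without Srrm2+/- replicate 1, and 3 without WT replicate 3 or without Srrm2+/- replicate 3.

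Among the plakins, large proteins that tie intermediate filaments to junctions and to other cytoskeletal fibres, and further linkers, 4 of 9 tested genes were called, each of them higher, where 13.6% of all genes were called higher. Desmoplakin (Dsp), which anchors filaments at desmosomes, rose from 14.5 ± 0.979 to 35.8 ± 1.31 CPM (1.30 in log2, SE 0.062, adjusted p 2.29e-06). Periplakin (Ppl) rose from 1.71 to 4.45 CPM (1.38, SE 0.14), and plectin (Plec), which binds vimentin, from 46.0 to 55.5 CPM (0.27, SE 0.048). Cryab, for a small heat shock protein that binds desmin and vimentin filaments, had 0 counts in every WT library and 47, 100 and 49 counts in Srrm2+/-. Against a floor of 3 counts in each WT library, it was at least 18-fold higher. The large plakins Dst and Macf1 did not pass the test, with log2 fold changes of -0.11 (SE 0.049) and -0.046 (SE 0.051). The median over the 9 genes was 0.27.

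No gene of the list around lamin maturation (Fnta, Fntb, Rce1, Icmt, Zmpste24 and Narf) was called by edgeR. Of the 6 tested, edgeR called 0 at an adjusted p under 0.05, where 25.3% of all genes were called. At an unadjusted p under 0.05 edgeR found 2 of the 6, and 6881 of all 18905 genes. DESeq2 called 1 of the 6 and limma voom 0. The gene called by DESeq2 was Fntb, for the beta subunit of the farnesyltransferase (in the edgeR fit -0.23 in log2, SE 0.096, edgeR adjusted p 0.117), and without WT replicate 1 edgeR called it too. Zmpste24, the protease that cleaves prelamin A, averaged 36.2 ± 1.67 CPM in WT against 35.1 ± 0.626 in Srrm2+/- (log2 fold change -0.048, adjusted p 0.536).

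Among partners of the lamina at the inner nuclear membrane, 2 of 11 tested genes were called higher and 1 lower, a share near the 25.3% of all genes called, with a median log2 fold change of 0.044. Emd, for emerin, which binds A-type lamins, rose from 38.1 ± 1.29 to 46.4 ± 0.168 CPM (0.28 in log2, SE 0.043, adjusted p 0.00156), and Tmem43 was also higher (0.24, SE 0.054). Nemp1 fell by 0.50 on the log2 scale (SE 0.047, adjusted p 0.000108). Lbr, the lamin B receptor, stood at 308 ± 13.9 and 313 ± 17.1 CPM and did not pass the test (0.023 in log2, SE 0.052, adjusted p 0.803).

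Genes of the LINC complex, which couples the lamina to the cytoskeleton across the nuclear envelope, gave 1 higher and 1 lower call among 7 tested, again near the 25.3% of all genes. Sun1, an inner membrane protein that binds lamin A, fell from 150 ± 10.8 to 112 ± 7.28 CPM (-0.41 in log2, SE 0.064, adjusted p 0.00178). Syne2, for nesprin-2, rose from 15.97 to 23.5 CPM (0.55, SE 0.065, adjusted p 0.000351). Sun2 stood at 11.1 and 9.76 CPM and did not pass the test (adjusted p 0.124). The median over the 7 genes was -0.11.

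Of 10 genes for kinases known to phosphorylate intermediate filaments, 3 were called higher and 1 lower, beside 25.3% of all genes called, with a median log2 fold change of 0.14. Camk2d rose from 4.17 to 10.7 CPM (1.36, SE 0.098), the mitotic kinase Plk1 from 43.0 to 58.7 CPM (0.45, SE 0.083) and Rock2 from 88.0 to 103 CPM (0.23, SE 0.039), while Prkca fell by 0.69 on the log2 scale (SE 0.16). Cdk1, whose kinase takes the lamina apart in mitosis, did not pass (0.13 in log2, SE 0.045, adjusted p 0.0668).

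**Figure D4:**
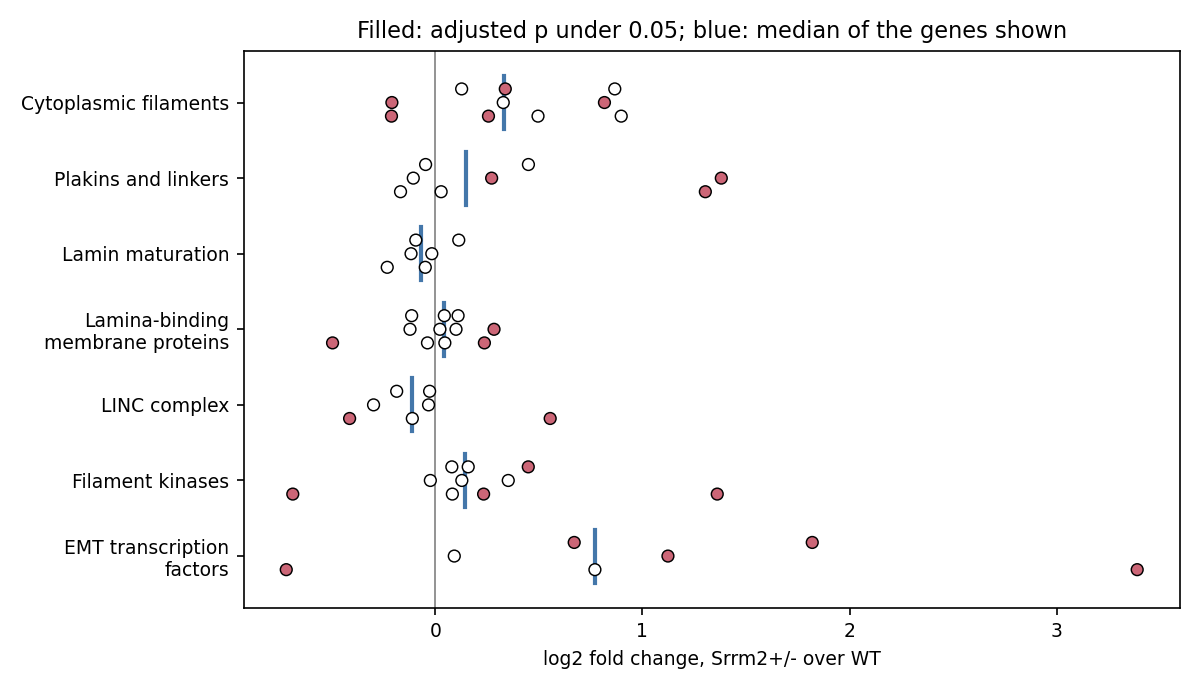
Log2 fold change, Srrm2+/- over WT, of each tested gene in 7 lists around the filament and lamin genes (points, filled where the adjusted p was under 0.05), with the median of the genes shown in blue; Cryab, at 0 counts in WT, is left out. Lamin maturation holds no filled point, and the filled points of the plakins and linkers all lie to the right of 0.

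Vim is widely used as a marker of the epithelial-mesenchymal transition, so the transcription factors of that transition were listed beside it. Of 7 tested, 4 were called higher and 1 lower, beside 13.6% and 11.7% of all genes. Zeb1 fell from 24.0 ± 2.27 to 14.6 ± 1.23 CPM (-0.72 in log2, SE 0.085, adjusted p 0.000385). Zeb2 rose from 4.77 to 7.59 CPM (0.67, SE 0.14), Twist1 from 1.61 to 3.52 CPM (1.12, SE 0.14) and Prrx1 from 0.210 to 0.746 CPM (1.82, SE 0.38). Twist2 counts were 0, 2 and 2 for WT against 23, 14 and 17 for Srrm2+/-. Snai1 and Snai2 did not pass, at 0.126 and 0.301 CPM in WT.

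Markers of cell types known for these filaments were read in the same libraries, and their part in the results above was not tested. Of 10 neural progenitor markers 4 passed the filter, and 2 of these were called lower, beside 11.7% of all genes. Pax6 fell by 0.30 and Tubb3 by 0.76 on the log2 scale (SE 0.054 and 0.058). The 10 genes summed to 74.1 to 80.1 CPM in WT and 50.1 to 54.4 in Srrm2+/- (here per library total, without TMM factors). Most of that sum lay in Tubb3 (48.8 CPM in WT, 28.7 in Srrm2+/-) and Pax6 (27.2 and 22.1 CPM). Sox1 (0.31 in log2, SE 0.25) and Pou3f2 (-0.23, SE 0.44) did not pass the test. Hes5, left out by the filter, had 5, 4 and 2 counts in WT and 13, 7 and 9 in Srrm2+/-. The proneural markers Neurog2 and Olig2 were at 0 counts in every WT library and at no more than 1 count in any Srrm2+/- library. Fibroblast and mesenchyme markers summed to 4.03 to 4.37 CPM in WT and 7.83 to 11.98 in Srrm2+/-, with 5 of 8 tested genes called higher (13.6% of all genes), among them Col1a2 (0.197 CPM in WT, 2.96 in Srrm2+/-) and Col3a1 (0.521 and 2.54 CPM). Prrx1 is also among the transition factors above. Dcn, a defining fibroblast gene, was at 0 in WT and reached 4, 2 and 3 counts in Srrm2+/-. Lum had at most 3 counts in any library. Pdgfra and Pdgfrb did not pass the test (-0.39 and 0.23 in log2). Thy1, the marker of this list with the highest WT level, was lower, at 1.93 CPM in WT and 1.19 in Srrm2+/-. It did not pass the test either (-0.70 in log2, SE 0.27, edgeR adjusted p 0.0939).

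Primitive and parietal endoderm markers summed to 97.4 to 102 CPM in WT and 172 to 182 in Srrm2+/-, with 3 of 6 tested genes called higher (13.6% of all genes). Most of that sum lay in Sparc (36.5 CPM in WT, 72.3 in Srrm2+/-) and Lamb1 (61.4 and 102 CPM). The lineage factors Gata4 and Gata6 did not pass the test. Gata4 averaged 0.949 CPM in WT and 0.946 in Srrm2+/-. Gata6, at 0.124 CPM in WT, had few counts, with 3, 13 and 5 in WT and 21, 19 and 9 in Srrm2+/-. The markers did not all go up. Log2 fold changes of the 6 tested ran from -0.77 to 1.34, and 0 were called lower. Endothelial markers summed to 6.07 to 7.52 CPM in WT and 5.64 to 6.14 in Srrm2+/-, with Kdr called higher and Tek lower among 3 tested (25.3% of all genes called), and Erg at 0 counts in each library. Muscle markers summed to 12.3 to 12.7 CPM in WT and 14.5 to 17.3 in Srrm2+/-, with Des as the sole called gene of 2 tested (25.3% of all genes called), and Myod1 and Ckm at 0 counts in each library. Of 8 pluripotency markers 5 were called lower and 2 higher (11.7% and 13.6% of all genes), and they summed to 3357 to 3387 CPM in WT and 2746 to 2826 in Srrm2+/-. The lower ones were Nanog (-0.72 in log2), Fgf4 (-0.44), Esrrb (-0.38), Zfp42 (-0.31) and Sox2 (-0.30). Utf1 (0.52) and Dppa4 (0.14) were higher, and Pou5f1 did not pass the test.

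Genes whose log2 CPM ran most closely with each member over the 6 libraries are given as a description, since the 6 points share genotype and library. The comparison took in 10909 protein coding genes whose mean log2 CPM reached 1. Nes ran closest with Tmcc3, Bcl2 and Podxl (Pearson's r of 0.9996 or above), and 927 genes had an r over 0.95 with it. Lmna ran closest with Pvr, Limd1 and Bcar1 (0.999, 0.997 and 0.997), and Vim with Traf2, Zfyve9 and Brms1 (0.997, 0.997 and 0.991). The closest genes were Prpf19, Lig3 and Gas2l3 for Lmnb1 (0.995, 0.992 and 0.992) and Ube2k, Ddx58 and Cebpz for Lmnb2 (0.986, 0.980 and 0.974), where 15 genes passed 0.95. Between members, r was 0.96 for Nes and Lmna, 0.85 for Nes and Vim, and 0.71 for Vim and Lmna. With Lmnb1 it was 0.94 for Lmna, 0.89 for Nes and 0.62 for Vim. With Lmnb2 it was negative for each of the others, from -0.62 for Nes to -0.33 for Vim.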

How the data were processed

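Total RNA of 3 WT and 3 Srrm2+/- cultures was compared, grouped and numbered by their titles. Estimated counts of each gene, without normalisation, were deposited by the authors, who had quantified reads against GENCODE M24 transcripts using Kallisto 0.46.1. Libraries were made with a strand-specific kit, and the strand setting of the quantification was not given in the sources used here. Estimated counts were rounded to whole numbers. Symbols, coordinates and exon lengths came from GENCODE M21 (GRCm38), which matched 42156 of 42450 identifiers. A gene was tested if it passed filterByExpr (minimum count 10, minimum total 15).

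Differences were tested with edgeR 4.0.16 (TMM, glmQLFit, glmQLFTest, 2-sided, genotype as the sole term, all 6 libraries), with Benjamini-Hochberg adjustment over 18905 genes. The standard error was the log2 fold change divided by the root of F. Log2 CPM used a prior count of 2. Ratios were tested by exact permutation. Alternatives were RLE and upper quartile scaling, DESeq2 1.42.0, limma voom 3.58.1, other filters, a replicate block, libraries left out in turn and removal of short RNA genes. The script was tested on simulated data.

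The members, gene lists and tests were chosen with earlier results of these data known. Named genes were the members, Srrm2, list members with the largest or smallest changes or a role beside lamins, vimentin or nestin, and the 3 genes most alike to each member by Pearson's r. Promoters came from RefSeq (GRCm38.p6), and windows overlapping annotated untranslated regions (Vim, Lmna) were not printed. Eppk1, of the linker list, had no row that matched its symbol. The length per kilobase by longest transcript and the counts within lists under the alternatives were added after the data were seen. Intervals cover the spread between these cultures.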

Additional observations from a re-analysis of the deposited data

How the results depend on the processing

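Vim, Nes and Lmna were called higher in each of 14 alternatives, with log2 fold changes of 0.33 to 0.47, 2.57 to 2.74 and 0.36 to 0.48. Lmnb2 stayed below 0 and unpassed in all 14 (-0.11 to -0.032). Lmnb1 was positive in all 14 and passed in 5, with 0.14 under upper quartile scaling (adjusted p 0.0464), 0.13 with DESeq2 (0.0264), 0.13 with limma voom (0.0412), 0.14 under the filter of 1 CPM in every library of a group (0.0323) and 0.13 without short RNA, rRNA and mitochondrial genes (0.0440). With libraries left out it ranged from 0.10 to 0.15 and did not pass, with fewer samples in the fit. The cause of the other changes was not tested.

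The ratios of Lmna to Lmnb1, Lmna to Lmnb2, Lmnb1 to Lmnb2 and Vim to Nes kept their direction in all 8 alternatives each. Vim to Lmna, -0.052 with all libraries, ranged from -0.14 to 0.11 with libraries left out, and only without WT replicate 2 was it above 0.

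Of all genes tested, 4781 were called, 1153 when a change of 1 or more in log2 was also required, and 3515 to 4122 with a library left out. Deviations from the group means correlated at -0.028, -0.034 and -0.030 between libraries that share a number, which therefore gives no pairing. In the fit with a replicate block 4166 genes were called, Lmnb1 had an adjusted p of 0.0514, and no call of the 5 genes changed. The ratio test cannot go below 0.25 over 3 pairs, or below 0.1 with 3 libraries against 3. No ratio could thus be called in either form. The filter of 1 CPM left fewer low genes to test and reduced the called epithelial-mesenchymal transition factors from 5 to 3 and mesenchyme markers from 5 to 2.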

Other observations

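Nes and Lmna lie on the same chromosome with 499695 bases between them, a position noticed after the values were seen. Of the 35 annotated genes between them 18 were tested, and 3 were called higher and 1 lower (22.2%, against 25.3% of all genes tested), with a median log2 fold change of -0.0069. The higher genes were Iqgap3 (0.44, SE 0.077, edgeR adjusted p 0.00342), for a scaffold protein of the actin cytoskeleton, the transcription factor gene Mef2d (0.61, SE 0.12, edgeR adjusted p 0.00648) and Tmem79 (0.62, SE 0.095, edgeR adjusted p 0.00158), and the lower one was Sema4a (-0.60, SE 0.17, edgeR adjusted p 0.0289), for a semaphorin. Bcan, the tested gene of this interval nearest to Nes, averaged 0.498 CPM in WT against 0.559 in Srrm2+/- and did not pass the test (edgeR adjusted p 0.727). These 4 called genes were named after their values were seen.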
